A study of Mus musculus with 72 samples.

Results

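The 7 genes described here are Reep1, Slc2a13, Fgf11, Pacsin3, Lpar4, Dusp8 and Bvht, which were picked by name because their level in epididymal white adipose tissue (eWAT) was lower in FED-HFD mice than in FED-CTRL or CR20-HFD mice. They are 7 of 55416 genes counted, and all 7 were among the 15964 genes tested in eWAT. RNA was sequenced from the eWAT, liver and pituitary of 24 male mice of the sighted FVB strain FVB.129P2-Pde6b+ Tyrc-ch/AntJ, whose Pde6b+ and Tyrc-ch alleles all groups share. FED mice were born to dams that ate freely, and CR20 mice to dams given 20% less food from embryonic day 15 until weaning. From the age of 8 weeks the offspring ate either a diet with 10% fat (CTRL) or one with 45% fat (HFD), and the labels leave the time on the diet at 10 or 16 weeks, while the study's text gives 10 weeks for these mice. This made 4 groups of 6 mice, FED-CTRL, FED-HFD, CR20-CTRL and CR20-HFD, and the 3 tissues of a mouse carry the same animal number. Pups of a dam were divided between the diets, so a litter lies within 1 maternal group and can span both diets. Which mice shared a dam is not in the labels, so litter could not enter a fit, and p-values treat the mice as independent. The maternal treatment was given to dams, so p-values between maternal groups may be too small where mice shared a dam. The question put to the 4 groups was whether undernutrition of the dam alters how adult tissues respond to a high fat diet.

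The 7 genes belong to no single pathway. At the cell surface, Slc2a13 encodes a proton-coupled myo-inositol transporter, and Lpar4 a G protein-coupled receptor for lysophosphatidic acid, a lipid signal that adipose tissue makes with the secreted enzyme autotaxin (Enpp2). Reep1 and Pacsin3 shape membranes: REEP1 holds the tubules of the endoplasmic reticulum in their curved form, and PACSIN3 is an F-BAR protein that bends the plasma membrane during endocytosis and at caveolae, of which adipocytes hold many. Dusp8 encodes a phosphatase that switches off the stress kinases JNK and p38. Fgf11 encodes a fibroblast growth factor homologous factor, a protein that stays inside the cell in place of being secreted. Bvht (Braveheart) is a long noncoding RNA known from the commitment of mouse stem cells to the cardiac lineage.

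On the GRCm39 assembly, Slc2a13 lies on chr15:91151898-91457464 (minus strand) and Lpar4 on chrX:105964206-105977506 (plus strand). Reep1 lies on chr6:71684508-71787710 (plus strand) and Pacsin3 on chr2:91086095-91095033 (plus strand). Dusp8 lies on chr7:141633226-141649580 (minus strand) and Fgf11 on chr11:69686894-69692683 (minus strand). The counts cover the exons of each gene. Reep1 overlaps Mrpl35 on the opposite strand, with 221 to 627 counts in eWAT, and the strand setting of the counting is not given in the sources used here, so reads in the overlap cannot be told apart. Mrpl35 itself had a log2 fold change of -0.03 between FED-HFD and FED-CTRL. Every other gene that overlaps a member had at most 4 counts in any eWAT library.

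The promoters of 4 members are shown because genes chosen for 1 shared eWAT pattern had start regions of unlike base composition and motif content. Each is the 250 bases before the RefSeq start, written 5′ to 3′ on the gene's strand, taken from a RefSeq table of GRCm38.p6 and placed in GRCm39 by its single exact match. They lie at chr15:91457465-91457714 (minus strand, Slc2a13), chr2:91086908-91087157 (plus strand, Pacsin3), chrX:105963981-105964230 (plus strand, Lpar4) and chr7:141649022-141649271 (minus strand, Dusp8). Capitals mark any match, on either strand, to the searched motifs.
Slc2a13: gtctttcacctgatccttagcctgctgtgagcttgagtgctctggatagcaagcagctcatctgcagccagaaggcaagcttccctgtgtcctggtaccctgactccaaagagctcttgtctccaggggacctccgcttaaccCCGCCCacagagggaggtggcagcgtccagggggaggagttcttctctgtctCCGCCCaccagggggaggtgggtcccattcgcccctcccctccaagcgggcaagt
Pacsin3: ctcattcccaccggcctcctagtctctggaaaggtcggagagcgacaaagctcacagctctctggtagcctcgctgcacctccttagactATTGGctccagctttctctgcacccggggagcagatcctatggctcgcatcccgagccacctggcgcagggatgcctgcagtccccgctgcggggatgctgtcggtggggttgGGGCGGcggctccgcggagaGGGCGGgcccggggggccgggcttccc
Lpar4: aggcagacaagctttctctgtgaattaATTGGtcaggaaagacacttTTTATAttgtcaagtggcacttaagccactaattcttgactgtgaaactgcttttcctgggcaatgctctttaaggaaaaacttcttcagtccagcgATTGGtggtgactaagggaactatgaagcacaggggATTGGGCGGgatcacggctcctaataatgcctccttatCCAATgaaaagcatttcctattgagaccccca
Dusp8: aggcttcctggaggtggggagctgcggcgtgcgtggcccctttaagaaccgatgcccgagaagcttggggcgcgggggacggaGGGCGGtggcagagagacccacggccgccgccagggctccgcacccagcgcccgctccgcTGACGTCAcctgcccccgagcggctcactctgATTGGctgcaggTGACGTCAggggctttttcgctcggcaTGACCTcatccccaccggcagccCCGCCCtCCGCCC
The search covered the 300 bases from 250 before to 50 after the start of 6 members, and Bvht was not searched. The RefSeq start lay 423 bases from the start in the gene annotation for Fgf11 and 157 bases for Reep1, and at most 31 for the others. The Fgf11 and Reep1 results thus hold for the RefSeq start only. The GC box GGGCGG was found in 5 of 6 (Fgf11 had none), against 35.9% of 32534 promoters of the same length. The CCAAT box was found in 4 of 6, against 37.4%, and the Lpar4 promoter held 4 copies. The TATA box TATAAA was found in Lpar4, on the opposite strand 203 bases before the start, against 13.6% of promoters. The cyclic AMP response element TGACGTCA was found in Dusp8, as 2 copies beginning 107 and 63 bases before the start, against 1.8% of promoters. Dusp8 also held the nuclear receptor core sequence AGGTCA, which 16.3% of promoters hold and which is part of the DR1 element, a direct repeat of that core around 1 free base. No member held CACGTG (7.17% of promoters), TGANTCA (7.79%), the DR1 element (0.04%) or TTGCGCAA (0.184%). The GC content ran from 46.7% in Lpar4 to 73.3% in Dusp8, beside a median of 53.0% over all promoters, which 4 of 6 members exceeded.

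Total counts ran from 9842813 to 27601208 over the 72 libraries, and from 11589675 to 22364963 in eWAT. The tissues carried their own markers, with summed levels of 12 adipocyte markers of 11900 to 53700 CPM, which are counts scaled to a common library size, in eWAT, of 5 hepatocyte markers of 67500 to 114000 CPM in liver and of 6 hormone genes of 232000 to 410000 CPM in pituitary. In eWAT, FED-HFD mouse 23 stood apart with the lowest adipocyte sum, 11900 CPM beside 28600 to 38300 CPM in the other FED-HFD mice, and the highest macrophage sum. CR20-CTRL mouse 5 stood apart too, with an adipocyte sum of 17400 CPM beside 35100 to 53700 CPM in the other CR20-CTRL mice and a smooth muscle and pericyte sum of 1120 CPM beside 464 to 774 CPM. Epididymis and testis markers summed to 133 and 52.1 CPM in CR20-CTRL mice 4 and 5 and to 26.5 CPM in CR20-HFD mouse 6, and to at most 0.232 CPM in every other eWAT library. Leaving them out is described beside the results it moved most.

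In eWAT, all 7 genes had their lowest mean in FED-HFD. Values are CPM scaled by TMM within the tissue. They chose the members, so the contrasts of FED-HFD with FED-CTRL and with CR20-HFD are given as a description. The log2 fold changes and standard errors come from an edgeR quasi-likelihood fit of the 24 eWAT libraries. Calls of members in these contrasts rest on the values that chose them, so they place the members by the study's limits and test nothing. In bulk tissue, fewer cells of a type and less RNA per cell cannot be told apart. By the limits of the study's eWAT plots (adjusted p no higher than 0.055 and log2 fold change no smaller than 1 in size), Reep1, Slc2a13, Fgf11 and Dusp8 were called lower in FED-HFD than in FED-CTRL, while 0.514% of all genes tested were. With limma, which the study used, Dusp8 came to -0.95 and was not called. Pacsin3 and Lpar4 were called higher in CR20-HFD than in FED-HFD, while 0.714% of all genes were. No member was called in both contrasts at that fold, where 0.138% of genes were. At an absolute log2 fold change of at least 0.58, the limit in the study's methods, all 7 were called in both, as were 106 genes or 0.664% of those tested. The members nearest to the fold limit were Dusp8 (-1.03) just inside it and Bvht (-0.77) just outside it in the first contrast, and Pacsin3 (1.19) and Bvht (0.92) in the second.

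**Figure D1:**
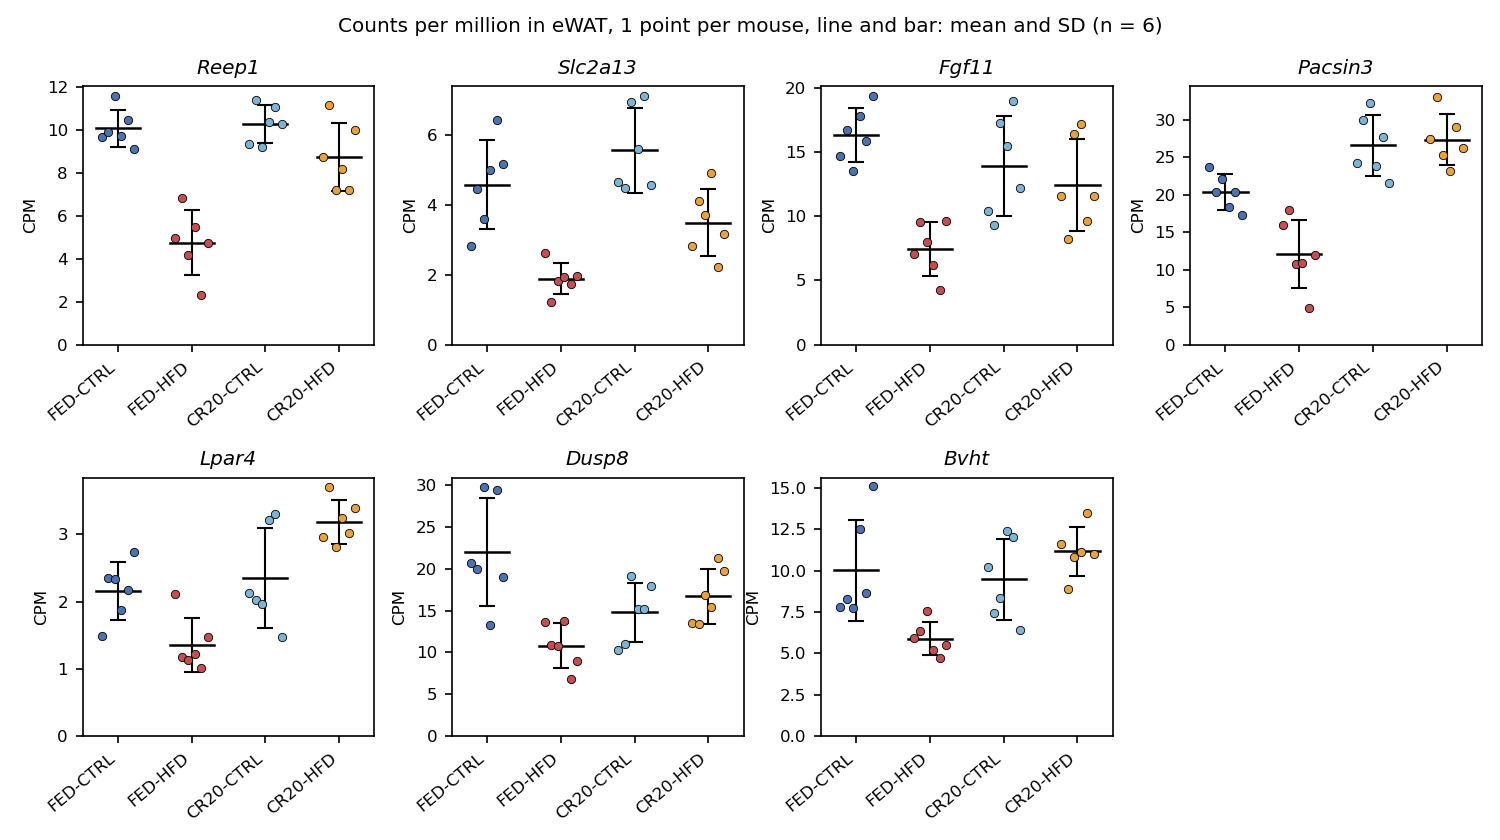
CPM (vertical axis, from 0) of the 7 genes in eWAT for FED-CTRL, FED-HFD, CR20-CTRL and CR20-HFD mice. Points are mice, and lines and bars are the mean and SD of 6 mice. FED-HFD has the lowest mean in each panel, and for Reep1 and Bvht its 6 points lie below all points of FED-CTRL and of CR20-HFD.

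Of the 7 genes, Slc2a13, the inositol transporter, had the largest log2 fold change between FED-HFD and FED-CTRL. Its level ran from 2.83 to 6.44 CPM (median 4.72) in FED-CTRL and from 1.23 to 2.61 CPM (median 1.88) in FED-HFD, and these groups did not overlap. In CR20-CTRL it ran from 4.49 to 7.11 CPM (median 5.12) and in CR20-HFD from 2.21 to 4.91 CPM (median 3.44). The median of CR20-HFD lay between that of FED-HFD and those of the control diet groups. The log2 fold change was -1.28 ± 0.222 (SE, 2.43-fold lower) in FED-HFD against FED-CTRL and 0.89 ± 0.222 in CR20-HFD against FED-HFD.

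Lpar4 had the fewest counts of the members, 20 to 68 per eWAT library. The receptor ran from 1.49 to 2.74 CPM (median 2.26) in FED-CTRL and from 1.01 to 2.11 CPM (median 1.2) in FED-HFD, where 5 of 6 mice lay below every FED-CTRL mouse. It ran from 1.47 to 3.3 CPM (median 2.08) in CR20-CTRL and from 2.81 to 3.71 CPM (median 3.13) in CR20-HFD, so that CR20-HFD was above all FED-HFD and all FED-CTRL mice. Lpar4 thereby differed from Slc2a13, whose highest group was CR20-CTRL. Lpar4 had a log2 fold change of -0.69 ± 0.214 (SE) in FED-HFD against FED-CTRL and 1.25 ± 0.214 (2.37-fold higher) in CR20-HFD against FED-HFD.

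Reep1, the endoplasmic reticulum gene, had narrow control diet groups. It ran from 9.13 to 11.6 CPM (median 9.83) in FED-CTRL and from 9.24 to 11.4 CPM (median 10.3) in CR20-CTRL. It ran from 2.29 to 6.85 CPM (median 4.86) in FED-HFD and from 7.21 to 11.2 CPM (median 8.47) in CR20-HFD. FED-HFD lay wholly below the other 3 groups. Reep1 had a log2 fold change of -1.09 ± 0.171 (SE, 2.13-fold lower) in FED-HFD against FED-CTRL and 0.88 ± 0.171 in CR20-HFD against FED-HFD.

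Pacsin3, the other membrane-shaping gene, had a higher median in both CR20 groups than in FED-CTRL. It ran from 17.3 to 23.7 CPM (median 20.4) in FED-CTRL and from 4.90 to 17.9 CPM (median 11.5) in FED-HFD. It ran from 21.6 to 32.3 CPM (median 26.0) in CR20-CTRL and from 23.1 to 33.1 CPM (median 26.8) in CR20-HFD. FED-HFD overlapped FED-CTRL by 1 mouse and lay wholly below CR20-HFD. The log2 fold change was -0.76 ± 0.190 (SE) in FED-HFD against FED-CTRL and 1.19 ± 0.191 (2.27-fold higher) in CR20-HFD against FED-HFD.

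Dusp8 was the member whose CR20-CTRL group lay farthest from FED-CTRL. The phosphatase ran from 13.3 to 29.8 CPM (median 20.3) in FED-CTRL, from 6.78 to 13.8 CPM (median 10.8) in FED-HFD, from 10.3 to 19.1 CPM (median 15.2) in CR20-CTRL and from 13.4 to 21.3 CPM (median 16.2) in CR20-HFD. Neighbouring groups overlapped, and 4 of 6 FED-HFD mice lay below every FED-CTRL mouse. The log2 fold change was -1.03 ± 0.203 (SE) in FED-HFD against FED-CTRL and 0.64 ± 0.203 in CR20-HFD against FED-HFD.

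Fgf11, the intracellular growth factor homologue, ran from 13.5 to 19.4 CPM (median 16.3) in FED-CTRL and from 4.22 to 9.65 CPM (median 7.52) in FED-HFD, without overlap. It ran from 9.34 to 19 CPM (median 13.8) in CR20-CTRL and from 8.19 to 17.2 CPM (median 11.6) in CR20-HFD, so both CR20 groups were wider than FED-CTRL. Fgf11 had a log2 fold change of -1.13 ± 0.209 (SE, 2.19-fold lower) in FED-HFD against FED-CTRL and 0.74 ± 0.209 in CR20-HFD against FED-HFD.

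Bvht, the noncoding member, lies on chr18:61747529-61780562 (GRCm39, plus strand). In eWAT it ran from 7.73 to 15.1 CPM (median 8.45) in FED-CTRL and from 4.72 to 7.57 CPM (median 5.70) in FED-HFD. It ran from 6.40 to 12.4 CPM (median 9.25) in CR20-CTRL and from 8.89 to 13.5 CPM (median 11.1) in CR20-HFD. FED-HFD did not overlap FED-CTRL or CR20-HFD. Bvht had a log2 fold change of -0.77 ± 0.185 (SE) in FED-HFD against FED-CTRL and 0.92 ± 0.186 in CR20-HFD against FED-HFD.

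Reep1, Slc2a13, Fgf11 and Bvht had FED-HFD wholly below FED-CTRL, as 2.7% of all genes tested had, and Reep1, Pacsin3, Lpar4 and Bvht had CR20-HFD wholly above FED-HFD, as 2.5% had. Both contrasts share the 6 FED-HFD mice. The difference between the maternal groups in the diet effect, also part of what chose the members, ran from 0.61 ± 0.307 (SE) in Slc2a13 to 1.21 ± 0.285 in Dusp8 on the log2 scale. Which members passed the rule on that difference turned on the method and on single mice. With all libraries edgeR called 3 (Lpar4, Dusp8 and Bvht), as 0.0438% of all genes were in that direction, while limma, DESeq2, DESeq2 size factors and the animal-number covariate each called 2 (Lpar4 and Dusp8) and edgeR without a filter called 1 (Dusp8). Between 0 and 4 were called when 1 mouse was left out, and 0 without the 3 libraries with epididymis RNA.

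FED-HFD mouse 23 was the lowest of its group for 6 of the 7 genes, and Slc2a13 was lowest in mouse 11. The mean log2 difference of the 7 genes from the FED-CTRL mean was -1.57 in mouse 23 and between -0.94 and -0.66 in the other 5 FED-HFD mice, while every mouse of the other groups lay between -0.23 and 0.27. Without mouse 23, the members called lower in FED-HFD than in FED-CTRL were Slc2a13 and Fgf11, since Reep1 came to -0.94 and Dusp8 to -0.93. Pacsin3 at 1.01 and Lpar4 at 1.17 were still called in CR20-HFD against FED-HFD without it.

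Some lists of cell type markers also differed between these groups, to unlike extents and often with overlap. The 12 macrophage markers summed to 1590 to 2380 CPM in FED-CTRL, 2630 to 15000 CPM in FED-HFD, 1180 to 2700 CPM in CR20-CTRL and 1290 to 2320 CPM in CR20-HFD. Of these 12, 7 were called higher in FED-HFD than in FED-CTRL, where 4.18% of all genes were, with Gpnmb at a log2 fold change of 3.28 and Trem2 at 2.66, and 8 were called lower in CR20-HFD against FED-HFD, where 4.78% of all genes were. The 12 adipocyte markers had a median log2 fold change of -0.41 in FED-HFD against FED-CTRL, with none called, and of 0.38 in CR20-HFD against FED-HFD, with Cfd (1.49) and Retn (1.02) called higher. The median over all genes was at most 0.02 in size in both contrasts. Among adipocyte markers, Adipoq stood at -0.59 and Fabp4 at -0.21, and Lep at 0.15. The 7 endothelial markers had medians of -0.43 and 0.65 in the first and second contrast, the 8 smooth muscle and pericyte markers -0.33 and 0.57, and the 6 mesothelial markers -0.71 and 0.60. Cldn5 (endothelial, 1.17) and Tagln (smooth muscle, 1.23) were called higher in the second. Adipocyte sums ran from 35900 to 44000 CPM in FED-CTRL, 11900 to 38300 CPM in FED-HFD and 40700 to 45200 CPM in CR20-HFD. In the same order, endothelial sums ran from 343 to 820, 198 to 456 and 460 to 709 CPM. Mesothelial sums ran from 336 to 703, 157 to 815 and 54.2 to 793 CPM. The FED-HFD and FED-CTRL sums of these lists overlapped. The 8 stromal progenitor markers had medians of 0.24 and 0.06, with Lum (1.02) called higher in the first. The 4 tested skeletal muscle markers had medians of -0.51 and 0.57, with Acta1 (1.29) called higher in the second, and their list of 6 summed to 8.39 to 24.0 CPM in FED-HFD, 13.7 to 27.7 CPM in FED-CTRL, 8.47 to 61.9 CPM in CR20-CTRL and 12.2 to 56.0 CPM in CR20-HFD. The 3 tested Schwann cell markers had medians of 0.16 and -0.42. Hepatocyte markers summed to 68.4 to 268 CPM in FED-CTRL, 7.29 to 780.0 CPM in FED-HFD, 129 to 950.0 CPM in CR20-CTRL and 96.5 to 986 CPM in CR20-HFD, and Ttr (6.19 and -4.97) and Apoa1 (6.49 and -5.60) were called in both contrasts and Cyp2e1 (3.28) in the second. In FED-HFD, mouse 10 alone held 780 CPM of hepatocyte markers, and the other mice held 7.29 to 161 CPM. The median sum was 67.6 CPM in FED-HFD and 167 CPM in FED-CTRL. No marker of the adipocyte, macrophage, endothelial, smooth muscle or mesothelial list was at 0 throughout a group. The part of these cell types in the members' levels was not tested.

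**Figure D2:**
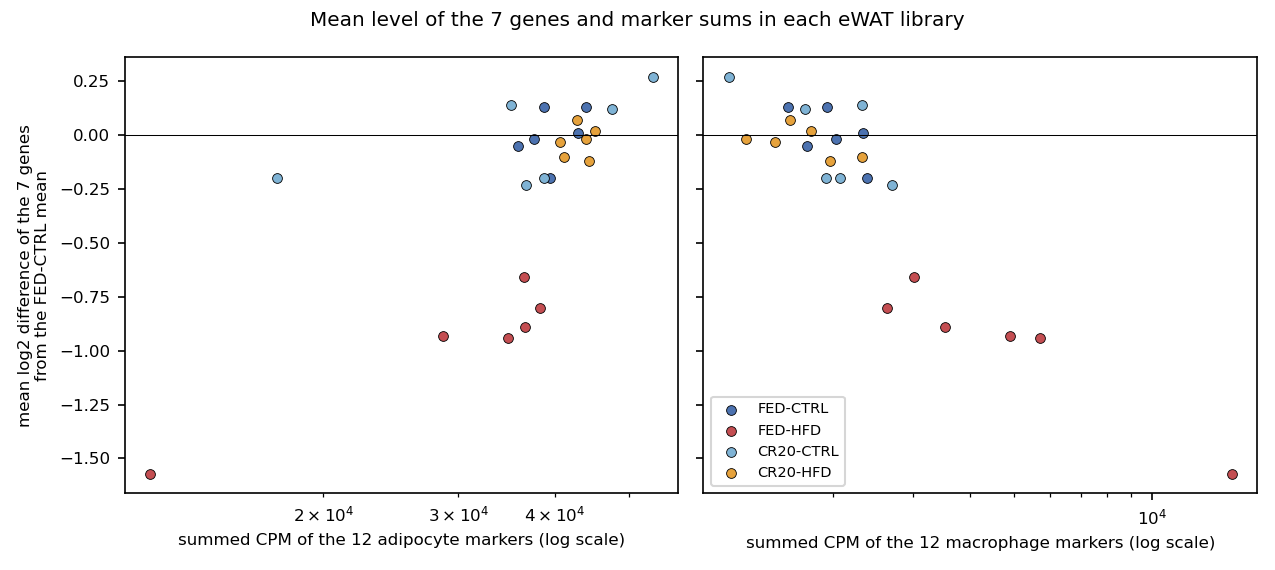
Mean log2 difference of the 7 genes from the FED-CTRL mean (vertical axis) against the summed CPM of 12 adipocyte markers (left, log axis) and 12 macrophage markers (right, log axis), with 1 point for each of the 24 eWAT libraries. The 6 FED-HFD points lie below all others, and mouse 23 (-1.57) is the lowest point in both panels, at the lowest adipocyte and the highest macrophage sum. CR20-CTRL mouse 5, with an adipocyte sum of 17400 CPM, stands at -0.20. FED-HFD mouse 11, with an adipocyte sum of 38300 CPM, stands at -0.80.

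The other eWAT contrasts share the CR20-HFD or FED-CTRL mice whose levels chose the members, so they too are a description without a test. Between CR20-HFD and CR20-CTRL, Slc2a13 had a log2 fold change of -0.67 ± 0.215 (SE, n = 6 per group, 1.59-fold lower), and 5 of 6 CR20-HFD mice lay below every CR20-CTRL mouse. Reep1 stood at -0.23 ± 0.168 and Fgf11 at -0.16 ± 0.206. The other members stood at 0.04 (Pacsin3), 0.43 (Lpar4), 0.18 (Dusp8) and 0.24 (Bvht). Slc2a13 was thus the member with the largest diet difference among offspring of CR20 dams. No gene of the 15964 was called in this contrast (0%, with 6.03% at an unadjusted p under 0.05 by edgeR). Leaving out the 3 libraries with epididymis RNA gave -0.33 for Fgf11 and 0.05 for Dusp8, and -0.74 for Slc2a13. With 1 mouse left out, Pacsin3 turned to -0.02 without CR20-HFD mouse 7, Fgf11 came to -0.05 without CR20-CTRL mouse 48, Dusp8 to 0.09 without CR20-CTRL mouse 4 and Bvht to 0.15 without CR20-CTRL mouse 49.

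Between CR20-CTRL and FED-CTRL, Pacsin3 had a log2 fold change of 0.38 ± 0.187 (SE, n = 6 per group, 1.31-fold higher), with 5 of 6 CR20-CTRL mice above every FED-CTRL mouse. Dusp8 stood at -0.57 ± 0.200, with 2 of 6 CR20-CTRL mice below every FED-CTRL mouse. The other members stood at 0.03 (Reep1), 0.28 (Slc2a13), -0.23 (Fgf11), 0.12 (Lpar4) and -0.08 (Bvht). No gene was called in this contrast either (0%, with 7.39% at an unadjusted p under 0.05 by edgeR). Without the libraries with epididymis RNA, Fgf11 stood at -0.04, Lpar4 at 0.20, Reep1 at 0.01 and Bvht at -0.04, and Dusp8 at -0.39, Slc2a13 at 0.40 and Pacsin3 at 0.36. Leaving out 1 mouse turned the sign of Reep1 (-0.02 without CR20-CTRL mouse 5), Bvht (0.07 without FED-CTRL mouse 42) and Lpar4 (-0.01 without CR20-CTRL mouse 48). It took Fgf11 to -0.15 without CR20-CTRL mouse 5 and Slc2a13 to 0.18 without FED-CTRL mouse 14.

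**Figure D3:**
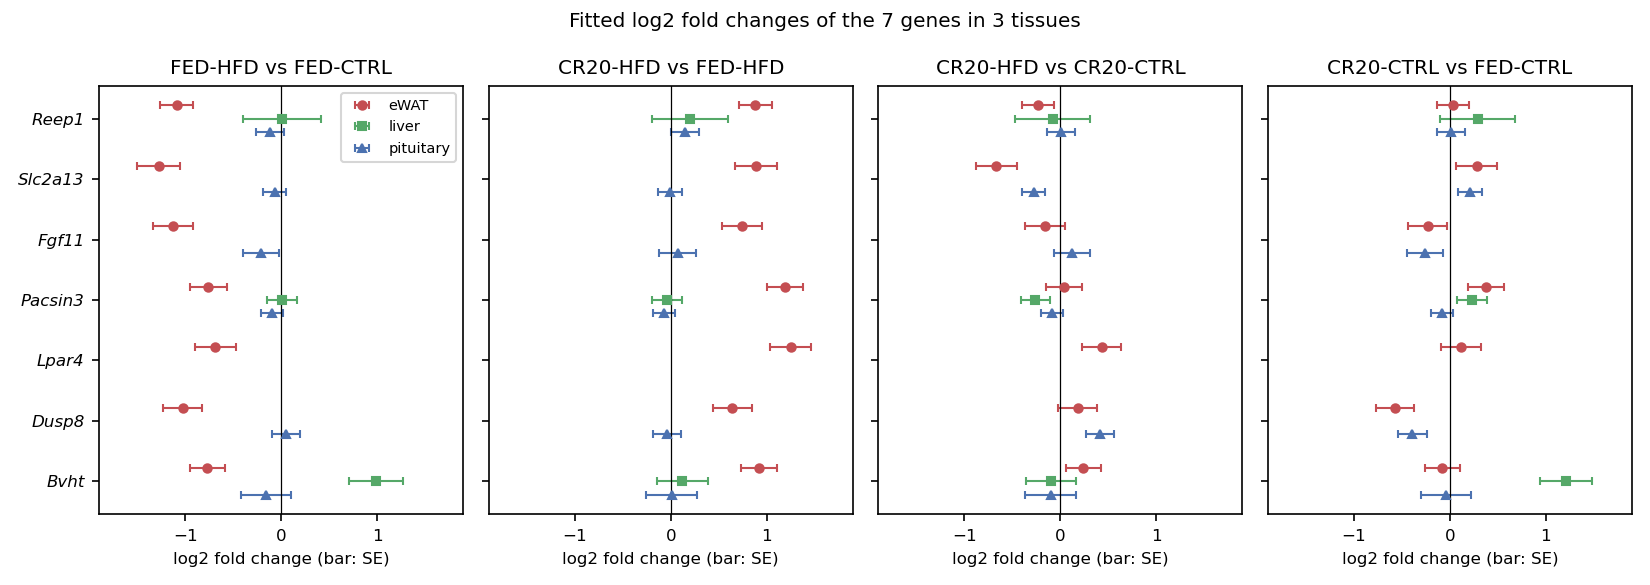
Log2 fold change with its standard error (horizontal axis) of the 7 genes in 4 contrasts, for eWAT (circles), liver (squares) and pituitary (triangles). Genes that did not pass the low-count filter of a tissue have no point there. The eWAT points are the only ones of a gene at or beyond -0.69 in the first contrast and at or beyond 0.64 in the second, and Bvht in liver stands at 0.99 in the first and 1.21 in the fourth.

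Liver and pituitary of the same mice gave levels and contrasts that the choice of members did not use. By level per kilobase of exon (mean CPM per kb over 24 libraries), eWAT was the highest of the 3 tissues for Reep1, Fgf11, Lpar4 and Bvht, pituitary for Slc2a13 and Dusp8, and liver for Pacsin3. RNA of liver was extracted by another method than RNA of eWAT and pituitary, so these levels are a description. Slc2a13 stood at 4.04 CPM per kb in pituitary, 0.384 in eWAT and 0.0143 in liver, and its pituitary and eWAT ranges did not overlap. Pacsin3 stood at 8.27 CPM per kb in liver, 3.08 in eWAT and 1.80 in pituitary, and its eWAT and pituitary ranges overlapped. Fgf11 stood at 4.09 CPM per kb in eWAT, 0.725 in pituitary and 0.167 in liver. Reep1 at 1.80 in eWAT and 1.47 in pituitary, and Dusp8 at 1.97 in eWAT and 2.58 in pituitary, had overlapping ranges between those tissues and lower levels in liver, 0.230 for Reep1 and 0.0578 for Dusp8. Bvht stood at 1.65 CPM per kb in eWAT, with 0.266 in pituitary and 0.212 in liver, which overlapped and changed places when all 72 libraries were scaled together. Lpar4 stood at 0.513 CPM per kb in eWAT and 0.0575 in pituitary. In liver it had 11 counts in all and 0 in 18 of 24 libraries, and a count of 0 allows up to 3 counts, or 0.109 to 0.305 CPM over the depths of the 72 libraries, for counting error only.

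**Figure D4:**
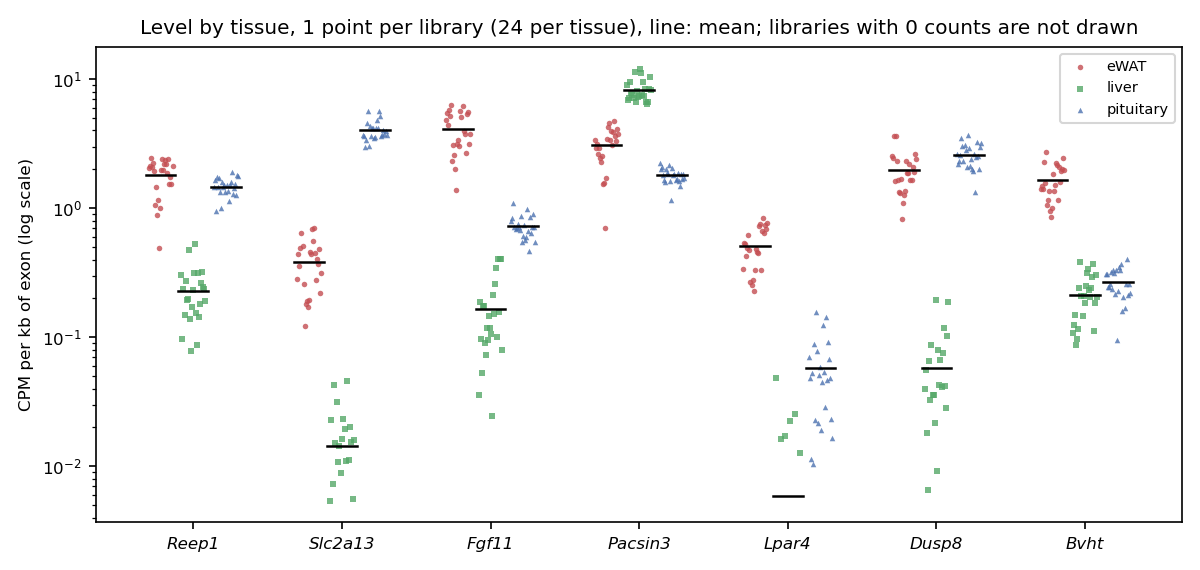
Level of each gene in CPM per kb of exon (vertical, log axis) in eWAT, liver and pituitary, with 1 point per library and the mean of 24 libraries as a line. Libraries with 0 counts are not drawn. Slc2a13 is highest in pituitary (4.04) and Pacsin3 in liver (8.27), and liver has the lowest mean of the other genes, though for Bvht liver and pituitary change places when all 72 libraries are scaled together.

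In pituitary, 6 members passed the filter on low counts, all except Lpar4. None of their 30 tests, over 4 contrasts and the interaction, was called at an adjusted p under 0.05, and 0% of the 16657 genes tested were called in any of the 4 contrasts or the interaction (at an unadjusted p under 0.05 by edgeR, 9.65% in FED-HFD against FED-CTRL, 6.77% in CR20-HFD against FED-HFD, 7.26% in CR20-HFD against CR20-CTRL, 17.3% in CR20-CTRL against FED-CTRL and 11.0% for the interaction). The members' log2 fold changes ran from -0.39 to 0.41, and 3 of the 30 tests had an unadjusted p under 0.05. Dusp8 gave 2 of them. It ran from 18.0 to 28.6 CPM (median 21.3) in FED-CTRL and from 10.9 to 21.5 CPM (median 16.8) in CR20-CTRL, a log2 fold change of -0.39 ± 0.147 (SE, n = 6 per group; exact permutation test, two-sided, p = 0.0303; edgeR adjusted p = 0.179). It ran from 16.3 to 26.4 CPM (median 22.5) in CR20-HFD, a log2 fold change of 0.41 ± 0.147 against CR20-CTRL (exact permutation test p = 0.039; edgeR adjusted p = 0.597). Dusp8 in CR20-CTRL thus had the lowest mean of the pituitary groups, as a difference that did not pass the adjustment. Both Dusp8 contrasts share the same 6 CR20-CTRL mice. Without the lowest of these, mouse 49 (10.9 CPM), the log2 fold changes came to -0.30 and 0.32. Slc2a13 ran from 36.0 to 57.6 CPM (median 45.6) in CR20-CTRL and from 36.8 to 40.4 CPM (median 37.7) in CR20-HFD, a log2 fold change of -0.28 ± 0.122 (exact permutation test p = 0.026; edgeR adjusted p = 0.637). In FED-HFD against FED-CTRL, the contrast in which eWAT gave -0.69 to -1.28, the pituitary values ran from -0.21 ± 0.188 (SE, Fgf11) to 0.05 ± 0.146 (Dusp8).

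In liver, Reep1, Pacsin3 and Bvht passed the filter, and none of their 15 tests was called. Over all 13787 genes, 0.0943% were called in FED-HFD against FED-CTRL, 0.377% in CR20-HFD against CR20-CTRL and 0% in the other contrasts and the interaction. At an unadjusted p under 0.05 by edgeR, 3 of the 15 member tests stood, all of Bvht, beside 6.66% of genes in FED-HFD against FED-CTRL, 3.57% in CR20-HFD against FED-HFD, 9.57% in CR20-HFD against CR20-CTRL, 2.18% in CR20-CTRL against FED-CTRL and 1.76% for the interaction. Pacsin3, at 45.3 to 84.5 CPM over all 24 mice, had log2 fold changes between -0.26 ± 0.155 (SE) and 0.23 ± 0.155. Reep1, at 5 to 33 counts per library, had log2 fold changes between -0.09 ± 0.563 and 0.29 ± 0.392.

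Of the 3 members tested in liver, Bvht had the largest log2 fold changes. With 7 to 36 counts per library, it ran from 0.484 to 0.816 CPM (median 0.620) in FED-CTRL, from 0.809 to 2.10 CPM (median 1.16) in FED-HFD, from 1.13 to 1.87 CPM (median 1.36) in CR20-CTRL and from 0.615 to 2.03 CPM (median 1.38) in CR20-HFD. FED-CTRL was the low group in liver, where FED-HFD was the low group in eWAT. All 6 CR20-CTRL mice lay above all FED-CTRL mice, a log2 fold change of 1.21 ± 0.274 (SE; exact permutation test, two-sided, p = 0.00216, the smallest that 924 divisions of 12 mice can give; edgeR unadjusted p = 0.000181, adjusted p = 0.999). In FED-HFD against FED-CTRL it was 0.99 ± 0.280 (exact permutation test p = 0.00433; edgeR adjusted p = 0.296), and 5 of 6 FED-HFD mice lay above every FED-CTRL mouse. The interaction was -1.08 ± 0.381 (edgeR unadjusted p = 0.00884, adjusted p = 0.999). None of these passed the rule after adjustment over all genes. The share of all liver genes whose CR20-CTRL and FED-CTRL mice lay wholly apart was not counted. The difference between the liver and eWAT effects was not tested. In pituitary, Bvht had log2 fold changes between -0.16 ± 0.264 and 0.05 ± 0.373.

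**Figure D5:**
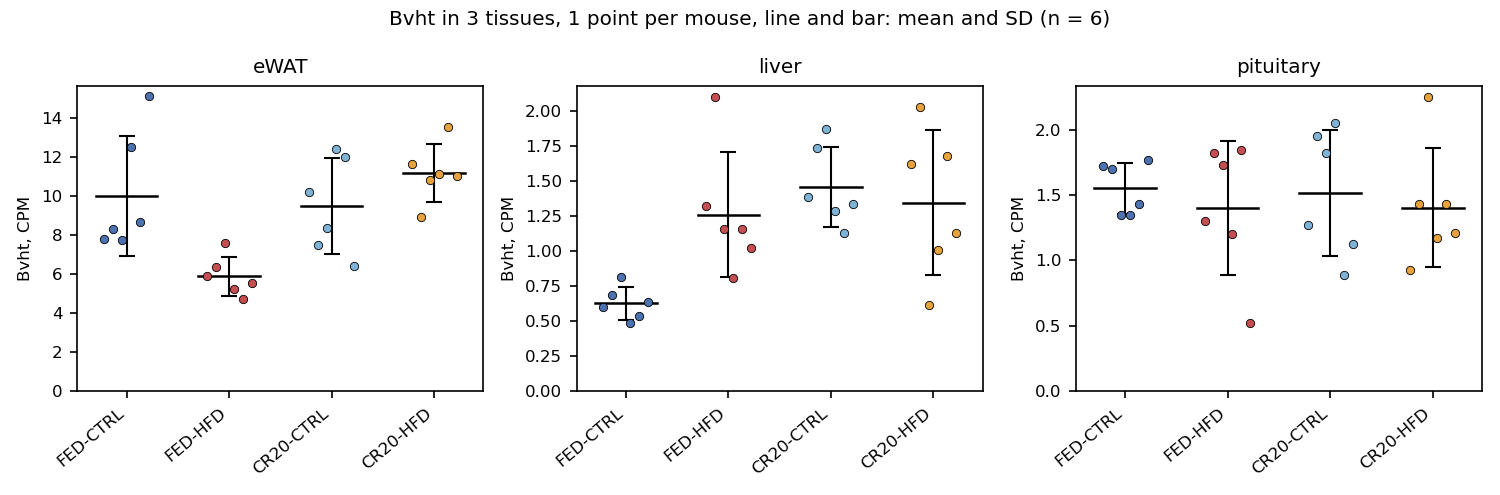
Bvht in CPM (vertical axes, each from 0) in eWAT, liver and pituitary for the 4 groups. Points are mice, and lines and bars are the mean and SD of 6 mice. FED-HFD is the lowest group in eWAT (4.72 to 7.57) and FED-CTRL the lowest in liver (0.484 to 0.816), while the pituitary groups overlap.

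Genes that work with the members were counted in eWAT by lists. In FED-HFD against FED-CTRL, none of 76 tested genes in 7 lists built around the members was called at a log2 fold change of 1 in size. At 0.58, the limit all 7 members passed, 4 of the 76 were called, where 8.01% of all genes were: Ehd4 (0.94), the phosphatase Dusp9 (0.90), the atlastin Atl2, which fuses endoplasmic reticulum tubules (-0.78), and the phosphatase Dusp4 (-0.65). In CR20-HFD against FED-HFD, 4 were called at 0.58, where 9.74% of all genes were: Lpar5 (-1.21), Ehd4 (-1.02), the transcription factor Gata6 (0.66) and the reticulon Rtn4 (-0.63). The genes named only at that limit were chosen after their values were seen. Among 13 genes that shape endoplasmic reticulum tubules, all tested, the median log2 fold change was 0.04, with Reep5, the most abundant relative of Reep1, at -0.01 ± 0.132 (SE) and the reticulon Rtn3 at 0.04 ± 0.0826. Among 5 tested genes of inositol handling, the median was 0.12, with the sodium-coupled inositol transporter Slc5a3 at -0.52 ± 0.207 and the lipid synthesis enzyme Cdipt at 0.12 ± 0.0821. Among 8 tested relatives and partners of Fgf11, the median was -0.34, with the sodium channel Scn7a at -0.56 ± 0.207.

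Around Pacsin3, 14 tested PACSIN and caveola genes had a median log2 fold change of -0.04, with the caveola coat genes Cav1 at -0.31 ± 0.179 (SE) and Cavin1 at 0.00 ± 0.137. Ehd4, a membrane-remodelling ATPase, was called in CR20-HFD against FED-HFD, where it was lower, at -1.02 ± 0.245 (edgeR adjusted p = 0.00718), opposite in sign to Pacsin3. Around Lpar4, 11 genes of lysophosphatidic acid signalling had a median of 0.11, with autotaxin (Enpp2) at -0.36 ± 0.183 and the phosphatase Plpp3 at 0.11 ± 0.158. Another receptor for the lipid, Lpar5, was called in the same contrast and was lower, at -1.21 ± 0.377 (edgeR adjusted p = 0.0323), where Lpar4 was higher, and it averaged 1.38 CPM in FED-CTRL, 2.73 CPM in FED-HFD and 1.19 CPM in CR20-HFD. Around Dusp8, 20 MAP kinase phosphatase and kinase genes had a median of 0.03, with p38 alpha (Mapk14) at 0.05 ± 0.0840 and its activator Map2k3 at -0.03 ± 0.0934. In CR20-HFD against FED-HFD the medians of these 6 lists ran from -0.04 to 0.21, and Ehd4 and Lpar5 were the 2 genes called at a size of 1.

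For Bvht, 5 tested genes of the Braveheart programme had medians of -0.45 and 0.49 in these contrasts and none was called at a size of 1, with Cnbp at -0.15 ± 0.102 (SE) and Suz12 at 0.08 ± 0.0699 in the first. The cardiac factors Mesp1, Gata4, Hand1, Nkx2-5, Tbx5 and Tbx20 did not pass the filter on low counts. Within 200 kb of Bvht, 8 annotated genes were tested. The kinase gene Csnk1a1, at a mean of 161 CPM, stood at -0.03 ± 0.0663 in FED-HFD against FED-CTRL and -0.01 ± 0.0663 in CR20-HFD against FED-HFD. Afap1l1 stood at -0.39 ± 0.271 and 0.64 ± 0.271, and the noncoding gene Carmn at -0.82 ± 0.336 and 0.49 ± 0.339. The microRNA gene Mir145a, at a mean of 0.38 CPM, stood at -2.13 ± 0.824 and 2.56 ± 0.813 and was called in the second. Arhgef37, Pcyox1l, Grpel2 and 1500015A07Rik lay between -0.22 and 0.22 in both.

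Across the 24 eWAT libraries, the 21 pairs of members had Pearson r of log2 CPM from 0.40 to 0.87 (median 0.61), which fell to -0.14 to 0.80 (median 0.28) once each group's mean was taken out. These points share the groups that chose the members, so the values are a description. The genes most like each member, of 13817 candidates over the same 24 libraries, were Thra, Raver2 and Mvb12b for Reep1 (r = 0.91, 0.90 and 0.89), Tmem271rt, Txnrd3 and Abhd3 for Slc2a13 (0.81, 0.81 and 0.80) and Lix1l, Lman2l and Pde1a for Fgf11 (0.92, 0.91 and 0.90). For Pacsin3 they were Zftraf1, Alad and Agt (0.93 each), for Lpar4 Trp53i13, Klhdc8b and Rhot2 (0.82, 0.81 and 0.81), for Dusp8 Trim16, Atl2 and Stk40 (0.81, 0.79 and 0.79) and for Bvht Tspan13, Emcn and Klhl4 (0.80, 0.79 and 0.79). The likeness of Fgf11 to Lix1l held within groups (0.86), while that of Slc2a13 to Tmem271rt came to 0.44.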

How the data were processed

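Bulk RNA-seq was made from eWAT, liver and pituitary of the same 24 mice, 72 libraries in all. The deposited values are raw counts per gene, which the authors made with FastQC, Trimmomatic, STAR and Subread featureCounts on GRCm39. Per the study's methods, liver RNA was column-purified and eWAT and pituitary RNA came from RNAzol RT. The counting's strand setting is not given in the sources used here. Groups came from the labels. Of 55416 gene IDs, 54749 had a name in the reference annotation, and no 2 libraries held identical counts.

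Each tissue was fitted alone with edgeR 4.0.16 (R 4.3.3): filterByExpr, TMM, 1 mean per group over 24 libraries, quasi-likelihood tests and Benjamini-Hochberg adjustment over all genes tested. Calls in eWAT and liver needed an adjusted p no higher than 0.055 and a log2 fold change no smaller than 1 in size, as in the study's plots, and in pituitary an adjusted p under 0.05. The standard error is the log2 fold change over the root of F. CPM were TMM-scaled, and log2 CPM used a prior count of 2. An exact permutation test (two-sided, 924 divisions of 12 mice) was added for single members in liver and pituitary (scipy 1.17.1). The fits were tested on simulated data with 200 genes lowered in FED-HFD by log2 fold changes of -2 or -1.5. Over tissues and methods, 156 to 188 of the 200 were called. Changes as small as those of the members were not simulated. Depth ran from 9842813 to 27601208 counts per library.

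Alternatives were limma 3.58.1 voom with quality weights, which the study used, DESeq2 1.42.0, other size factors, filters and sample sets, animal-number ranges as a covariate, each mouse left out and a fold limit of 0.58, as in the study's methods. Leaving out the 3 eWAT libraries with epididymis RNA was chosen after seeing the data. The members and lists were chosen with earlier results of these data known. All 7 members were named, with the 3 genes most like each by Pearson r in eWAT, and from each pathway list the called genes and the 2 most abundant, of which 1 is not reported here.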

Additional observations from a re-analysis of the deposited data

Results flagged for a closer look

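Within groups of 6 mice, 3 of 84 sets of log2 CPM were flagged for a mouse far from the others. Chance gives about 1 in 20 among sets that can be flagged, and not all of the 84 could be. Sets with at most 8 counts in every mouse could not be flagged. These were all liver sets of Slc2a13 and Lpar4, Fgf11 in FED-HFD liver and Dusp8 in FED-CTRL liver. For Lpar4 in liver, most libraries had 0 counts. There, FED-CTRL mouse 42, FED-HFD mouse 12 and CR20-HFD mouse 45 were each the only mouse of their group with any count. Reep1 in pituitary was low in FED-CTRL mouse 16, at 2.19 beside 2.78 in the nearest mouse. Pacsin3 in liver was high in FED-HFD mouse 11, at 6.32 beside 5.83. Bvht in pituitary was low in FED-HFD mouse 40, at -0.70 beside 0.36. No eWAT set of the 7 genes held such a mouse.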

How the results depend on the processing

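At a fold limit of 0.58 in place of 1, the members called in eWAT went from 4 to 7 in FED-HFD against FED-CTRL and from 2 to 7 in CR20-HFD against FED-HFD. Leaving out 1 mouse gave 2 to 4 in the first contrast, with 2 without FED-HFD mouse 23, and 2 to 3 in the second, with 3 without FED-HFD mouse 10, for example. With limma, and with animal-number ranges as a covariate, 3 were called in the first, and Dusp8 was the member lost. Dusp8 was also lost there without FED-CTRL mouse 16, FED-CTRL mouse 41 or FED-HFD mouse 40. Signs turned in small eWAT differences when 1 mouse was left out: in CR20-CTRL against FED-CTRL, Lpar4 ran from -0.01 to 0.23, Reep1 from -0.02 to 0.07 (and -0.02 with limma) and Bvht from -0.17 to 0.07, and in CR20-HFD against CR20-CTRL, Pacsin3 ran from -0.02 to 0.10. The cause was not tested. The counts of members called in the other eWAT contrasts, in liver and in pituitary were 0 under every alternative run, which says nothing of stability. The eWAT interaction count ran from 0 to 4. Bvht in liver ran from 0.76 to 1.09 in FED-HFD against FED-CTRL, with an adjusted p of 0.153 to 0.624 by edgeR, limma or DESeq2. In CR20-CTRL against FED-CTRL, Bvht in liver ran from 1.00 (limma) to 1.28 over the alternatives other than leaving out 1 mouse. The adjusted p there ran from 0.252 to 0.999 by edgeR, limma or DESeq2. No paired analysis was possible because the labels do not say which mice shared a dam, and no animal number recurs between the groups of a tissue. Of the members' fold changes, depth was lowest for Reep1 (5 to 33 counts) and Bvht (7 to 36 counts) in liver, and within eWAT for Lpar4 (20 to 68 counts).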
